A study of Mus musculus with 21 samples.

Results

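The genes described here serve amino acid supply: regulators of the cellular response to amino acid shortage and stress, enzymes that make amino acids, membrane transporters, and cytosolic enzymes that load tRNAs. Of 37 gene names on the list, 34 had a transcript cluster (a set of array probes for 1 transcript unit) with a single gene symbol, out of 22180 genes measured in this way. They comprise 8 stress regulators, 8 synthesis enzymes, 8 transporters, the lipoprotein receptor Vldlr and 9 tRNA synthetases. Pycr1 was not named by the array annotation used, and Slc6a9 and Aars lay only in clusters shared with another symbol (Ccdc24 and Exosc6), so these 3 are not analysed here.

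The cells were primary osteoblasts, the cells that build bone, from the calvaria (skull bone) of 7- to 10-day-old pups of the mouse strain C57BL/6J. At passage 2 they were kept in differentiation medium with ascorbic acid and β-glycerophosphate from day 3, and on day 10 they were deprived of serum for 24 h. They then received for 4 h one of 6 analogs of parathyroid hormone (PTH) or vehicle, in serum-free medium with albumin. The analogs hPTH(1-31), hPTH(1-34) and PTH(1-36) begin at residue 1 of the hormone and are called intact below, and each was given at 100 nM. The analogs bPTH(3-34) and hPTH(7-34), also at 100 nM, and bPTH(7-34), the bovine amide with D-Trp12 and Tyr34, at 1000 nM, start further along the hormone and are termed truncated. Each of the 7 groups had 3 independently prepared cultures, 100 ng of total RNA from each was hybridised to 1 Affymetrix Mouse Gene 2.0 ST array, and the 21 arrays carried signals on a log2 scale. A difference of 1 on that scale is a doubling. Arrays carry no reads, so precision here rests on the 3 arrays of a group and on each gene's spread, estimated over all 7 groups.

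When amino acids run short, uncharged tRNAs activate the kinase GCN2 (Eif2ak4), which phosphorylates the initiation factor eIF2α. Translation then slows in general while that of the transcription factor Atf4 increases, and Atf4 with C/EBP partners switches on genes for amino acid synthesis, uptake and tRNA charging. Osteoblasts make large amounts of collagen, and Atf4 is known as a factor they need for it. PTH acts on osteoblasts through Pth1r, a receptor that raises cyclic AMP.

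The cultures carried osteoblast transcripts: in vehicle cultures the collagen genes Col1a1 and Col1a2 averaged 13.2 and 12.9, and alkaline phosphatase (Alpl) averaged 8.93. The late marker Bglap averaged 3.73 there, close to the array medians of 3.49 to 3.61, and Runx2 had no cluster of its own. Markers of macrophages were also strong, with Lyz2 at 12.2 and Cd68 at 11.3 in vehicle cultures. The mean of the 8 macrophage markers spanned 9.62 to 9.79 on the arrays of hPTH(1-34), against 9.60 to 9.78 on the vehicle arrays, and 1 of the 8 was called (higher) with hPTH(1-34) and 0 with the other 2 intact analogs. Of 4 endothelial markers, Tek fell with each intact analog (by 0.65 on the log2 scale with hPTH(1-34)) and Kdr rose with hPTH(1-31) and PTH(1-36). The mean of the 4 spanned 4.42 to 4.52 with hPTH(1-34), against 4.59 to 4.80 with vehicle. It spanned 4.415 to 4.568 with bPTH(3-34), 4.472 to 4.56 with bPTH(7-34) and 4.423 to 4.65 with hPTH(7-34), so a mean below vehicle also occurred with truncated analogs. Of 8 osteoblast markers, Pth1r and Sp7 fell with each intact analog, by 1.10 and 0.56 with hPTH(1-34), and Alpl rose with hPTH(1-31) and hPTH(1-34), by 0.57 and 0.56. The part of these cell type markers in the results below was not tested, and in a whole culture fewer cells of a type and less RNA per cell cannot be told apart.

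With the intact analogs a small set of these genes changed, and the set was split across roles. The bifunctional glutamyl-prolyl-tRNA synthetase Eprs, the large neutral amino acid transporter Slc7a5 and the mTORC1 inhibitor Ddit4 rose with each of the 3, and the neutral amino acid transporter Slc38a2 fell with each. Of the 34 genes, 27 were not called against vehicle with any analog, among them Asns, Trib3, Chac1, Psat1 and Ddit3. Trib3 and Chac1 had low signals, averaging 4.05 and 4.44 with vehicle, where the array medians were 3.49 to 3.61. The 7 genes that were called with at least 1 analog were Eprs, Slc7a5, Ddit4, Slc38a2, Cth, Slc3a2 and Slc1a5. A gene was called where limma's moderated test gave an adjusted p under 0.05 (Benjamini-Hochberg over all 22180 genes). With hPTH(1-31), 5 of the 34 genes were higher and 1 was lower than with vehicle, where 8.7% of all genes were called (4.38% higher and 4.32% lower). With hPTH(1-34), 3 were higher and 2 were lower, where 8.64% of all genes were called (3.9% higher and 4.74% lower). With PTH(1-36), 4 were higher and 1 was lower, where 7.23% of all genes were called (3.68% higher and 3.54% lower). The median difference of the 34 genes was -0.02, 0.005 and -0.02 in these comparisons, against medians of -0.02, -0.01 and -0.02 over all genes. In an F test over all 6 analogs, 7 of the 34 were called, where 12.2% of all genes were. All of these comparisons share the same 3 vehicle arrays.

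**Figure D1:**
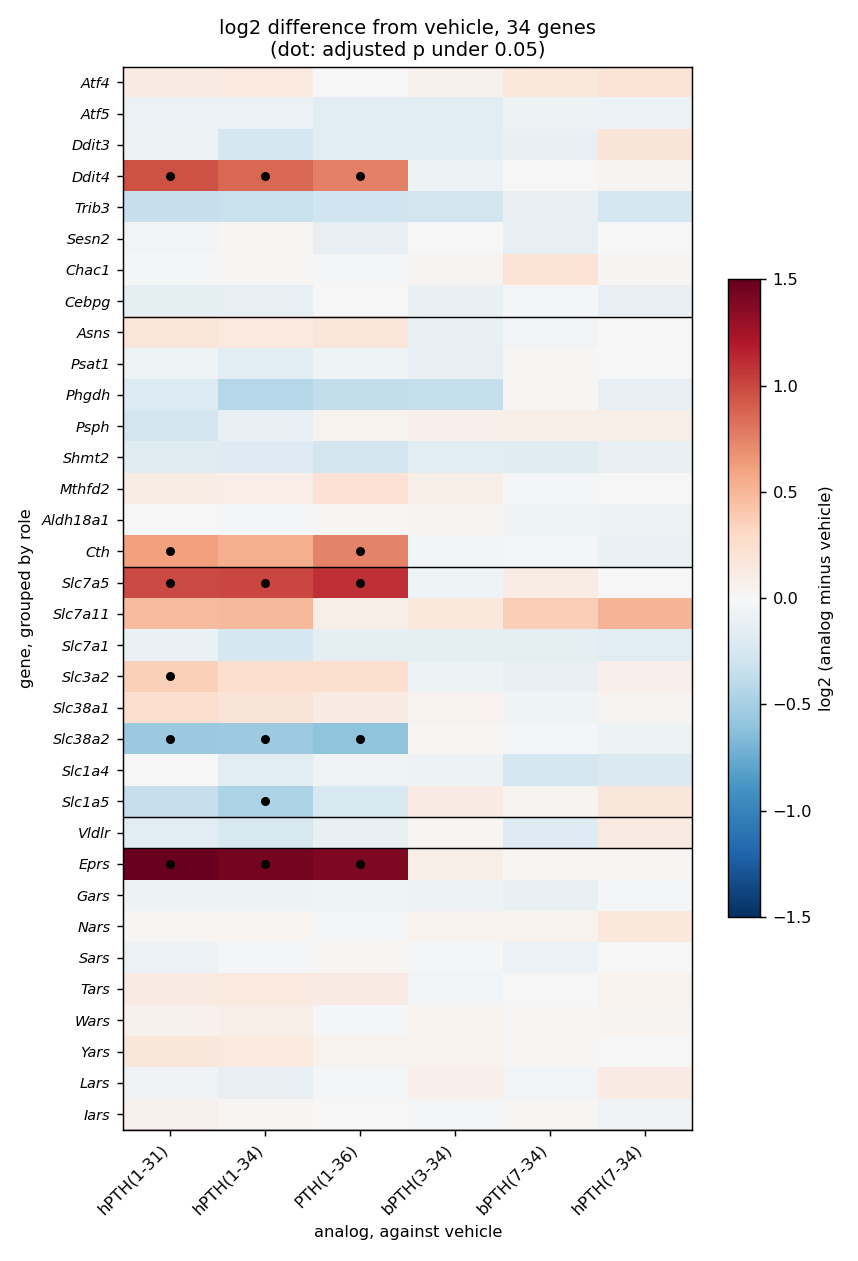
Log2 difference of each of the 34 genes (rows, grouped by role) from vehicle with each of the 6 analogs (columns), as colour from -1.5 to 1.5, with dots where the adjusted p was under 0.05. The dots lie in 7 rows and only in the columns of hPTH(1-31), hPTH(1-34) and PTH(1-36); Eprs, Slc7a5, Ddit4 and Slc38a2 carry one in each of those columns.

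Among the tRNA synthetases Eprs stood apart from the other 8. Eprs makes both glutamyl- and prolyl-tRNA in one protein, and proline is abundant in collagen. Eprs signals were 10.49, 10.34 and 10.57 with hPTH(1-31), 10.49, 10.33 and 10.43 with hPTH(1-34), and 10.39, 10.32 and 10.45 with PTH(1-36), against 9.01, 8.94 and 9.0 with vehicle. With the truncated analogs they were 9.09, 8.97 and 9.14 (bPTH(3-34)), 8.95, 8.97 and 9.09 (bPTH(7-34)) and 9.03, 8.99 and 9.02 (hPTH(7-34)). All 9 arrays of intact analogs lay above the other 12, and the truncated and vehicle arrays overlapped. The difference from vehicle was +1.48 with hPTH(1-31), a 2.80-fold higher signal (adjusted p = 4.38e-10), +1.43 with hPTH(1-34) (2.70-fold, 6.94e-10) and +1.40 with PTH(1-36) (2.65-fold, 1.21e-09), each with a standard error of 0.08.

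The other 8 cytosolic synthetases of the list, Gars, Nars, Sars, Tars, Wars, Yars, Lars and Iars (for glycine, asparagine, serine, threonine, tryptophan, tyrosine, leucine and isoleucine), were not called with any analog. With hPTH(1-34) their differences from vehicle ran from -0.12 (Lars) to +0.15 (Tars), and their 95% intervals all lay between -0.31 and 0.34. With hPTH(1-31) the differences ran from -0.09 (Sars) to +0.17 (Yars) and with PTH(1-36) from -0.06 (Gars) to +0.12 (Tars). A second list held 11 further cytosolic synthetases and proteins of the scaffold on which several of them, Eprs included, assemble. The F test called 18.2% of this list, against 12.2% of all genes. Of the 11, 1 rose with hPTH(1-31), 2 with hPTH(1-34) and 1 with PTH(1-36), and 0 fell. The scaffold protein Eef1e1 was the one called each time, at +0.39, +0.39 and +0.34. The phenylalanyl-tRNA synthetase subunit Farsa was called with hPTH(1-34), at +0.38 (adjusted p = 0.0171). It was not called with hPTH(1-31) or PTH(1-36), at +0.31 and +0.31 (0.058 and 0.068). With bPTH(3-34), bPTH(7-34) and hPTH(7-34) Farsa differed by +0.15, +0.23 and +0.21, also not called. Rars, for arginine, was called in the F test (adjusted p = 0.0278) but in no single comparison with vehicle, with differences of +0.15, +0.23 and +0.22, and it was lower with bPTH(3-34) than with hPTH(1-34), at -0.33 (adjusted p = 0.0107). Of 16 mitochondrial synthetases, 6.25% were called in the F test. Among the 16, 1 rose with hPTH(1-31), Mars2 at +0.47 (adjusted p = 0.0325), and 0 with the other 2 intact analogs. Fars2, the phenylalanine enzyme, was called in the F test (adjusted p = 0.0205) but in no single comparison with vehicle, at -0.12 with hPTH(1-34) and +0.25 with hPTH(7-34), and it was higher with bPTH(3-34) and hPTH(7-34) than with hPTH(1-34), at +0.36 and +0.37 (adjusted p = 0.0174 and 0.0135). A gene next to Eprs on its chromosome, the nucleotidase gene Bpnt1, differed from vehicle by +0.57 with hPTH(1-31) (adjusted p = 0.00504), +0.35 with hPTH(1-34) (0.0994) and +0.53 with PTH(1-36) (0.0110). Neighbours of other called genes also differed. Ankrd13c beside Cth was higher with hPTH(1-31) and PTH(1-36), at +0.51 and +0.39. Anapc16 beside Ddit4 was lower with hPTH(1-31), at -0.41. Ptger3 beside Cth, Dnajb12 beside Ddit4, Ap2s1 beside Slc1a5, and Chrm1 and Wdr74 beside Slc3a2 were not called against vehicle.

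**Figure D2:**
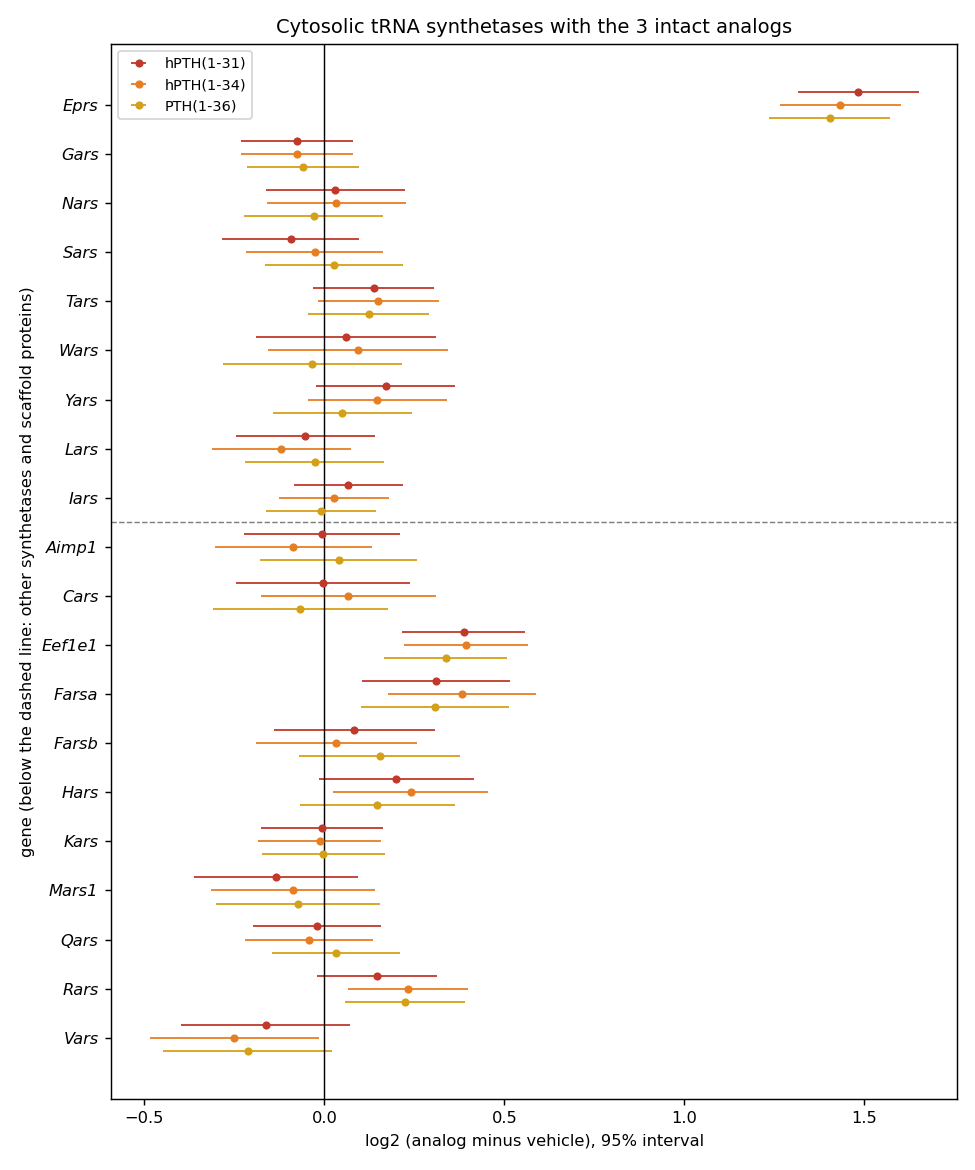
Log2 difference from vehicle (points) with 95% intervals (bars) for cytosolic tRNA synthetases and scaffold proteins with hPTH(1-31), hPTH(1-34) and PTH(1-36), with the second list below the dashed line. Eprs lies at +1.40 to +1.48 while the other 8 synthetases above the line have intervals that reach 0.

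The promoter of Eprs is shown because Eprs had the largest change of the 34 genes, beside those of 3 genes of the classical amino acid response that were not called, Asns, Trib3 and Chac1. The windows reach from 250 bases before to 50 bases after a start of transcription (RefSeq, GRCm38.p6). For Asns, Trib3 and Chac1 that start is the outer end of the gene's RefSeq span. For Eprs it lies inside the span, which begins at chr1:185361417, so the sequence around that outer end was not searched. The windows lie at chr1:185362794-185363093 on the plus strand for Eprs, chr6:7693160-7693459 on the minus strand for Asns, chr2:152344011-152344310 on the minus strand for Trib3 and chr2:119350992-119351291 on the plus strand for Chac1. Each is written 5′ to 3′ along its gene, and capitals mark either the C/EBP-ATF response element (CARE), TGATGNAA, or the core of the cyclic AMP response element, TGACG, on either strand.
Eprs: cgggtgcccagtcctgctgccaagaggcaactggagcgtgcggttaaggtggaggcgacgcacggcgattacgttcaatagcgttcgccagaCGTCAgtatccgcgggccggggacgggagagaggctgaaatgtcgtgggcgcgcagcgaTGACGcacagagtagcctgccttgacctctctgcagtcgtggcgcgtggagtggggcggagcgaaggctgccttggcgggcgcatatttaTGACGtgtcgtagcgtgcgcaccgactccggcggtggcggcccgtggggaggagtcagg
Asns: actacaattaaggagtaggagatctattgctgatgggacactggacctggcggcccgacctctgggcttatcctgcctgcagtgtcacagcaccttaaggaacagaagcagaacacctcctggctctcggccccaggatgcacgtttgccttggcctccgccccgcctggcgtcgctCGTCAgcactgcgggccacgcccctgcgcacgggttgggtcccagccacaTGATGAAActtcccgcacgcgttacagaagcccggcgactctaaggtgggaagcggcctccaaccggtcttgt
Trib3: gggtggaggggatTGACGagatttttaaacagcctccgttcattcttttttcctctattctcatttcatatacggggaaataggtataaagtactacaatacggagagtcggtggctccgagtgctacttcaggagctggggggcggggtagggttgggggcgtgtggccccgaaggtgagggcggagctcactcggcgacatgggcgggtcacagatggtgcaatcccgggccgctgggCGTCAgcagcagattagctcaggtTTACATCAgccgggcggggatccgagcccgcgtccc
Chac1: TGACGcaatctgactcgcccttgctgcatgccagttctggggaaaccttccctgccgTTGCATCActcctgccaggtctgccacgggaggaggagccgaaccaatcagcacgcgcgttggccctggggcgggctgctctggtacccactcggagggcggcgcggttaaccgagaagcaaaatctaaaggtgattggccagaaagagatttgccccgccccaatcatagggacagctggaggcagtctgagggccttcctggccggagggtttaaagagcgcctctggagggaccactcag

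The Asns, Trib3 and Chac1 windows each held a CARE match, at -23, +15 and -193 from the start (leftmost base as written, the start being +1), with the letters TGATGAAA, TTACATCA and TTGCATCA, of which the last 2 are the element on the opposite strand. The Eprs window held no CARE match and 3 matches to TGACG, at -158, -99 and -9, the one at -158 on the opposite strand. Windows were found for 27 of the 34 genes. Of these, 10 held CARE (Asns, Chac1, Gars, Iars, Slc1a4, Slc7a11, Tars, Trib3, Vldlr and Yars), which is 37.0%, against 4.51% of 27025 genes with a window. Of the 10 with CARE, 0 were called against vehicle, a count near the background, as 12.2% of all genes were called in the F test. TGACG occurred in 12 of the 27 (44.4%), against 23.0% of all genes, and among the 4 called genes with a window (Eprs, Ddit4, Slc38a2 and Slc3a2) in Eprs and Slc38a2. Eprs was the one gene of the 27 with at least 3 matches to TGACG, a number that 1.17% of all genes reached. The cutoff of 3 is the count of Eprs itself, so this share describes Eprs and is not a test. The full cyclic AMP response element, TGACGTCA, which contains TGACG, occurred in 0 of the 27 and in 2.03% of all genes. A match describes letters in this window and is not evidence of a bound factor. The windows of Slc3a2 and Slc7a11 and the Vldlr window with CARE, like that of Eprs, lie inside the RefSeq span of the gene. For Psph and Yars the start used also lies inside the span. Several windows were found for 4 of the genes, and a match in any window of a gene was counted.

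Among the transporters, Slc7a5 rose and Slc38a2 fell with all 3 intact analogs. Slc7a5 (LAT1) exchanges intracellular glutamine for leucine and other large neutral amino acids at the cell surface. Its signals were 9.02, 8.97 and 8.84 with hPTH(1-31), 9.03, 9.04 and 8.79 with hPTH(1-34), and 9.15, 9.08 and 8.94 with PTH(1-36), against 8.03, 8.06 and 7.78 with vehicle. The truncated analogs gave 7.72, 8.14 and 7.82 (bPTH(3-34)), 8.25, 7.98 and 7.97 (bPTH(7-34)) and 7.89, 7.94 and 8.02 (hPTH(7-34)). Every array of an intact analog lay above every other array, and the truncated arrays lay on both sides of the vehicle arrays. The difference from vehicle was +0.99 with hPTH(1-31) (adjusted p = 1.22e-05), +1.00 with hPTH(1-34) (1.09e-05) and +1.10 with PTH(1-36) (3.95e-06), each with a standard error of 0.12, so that the signal was 1.98 to 2.14 times that of vehicle.

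Slc3a2 (CD98) is the heavy chain that carries Slc7a5 to the cell surface and also pairs with Slc7a11. It averaged 9.71 ± 0.10 with hPTH(1-31), 9.61 ± 0.17 with hPTH(1-34) and 9.59 ± 0.13 with PTH(1-36), against 9.35 ± 0.12 with vehicle (SD, n = 3 each). It was called with hPTH(1-31), at +0.36 (adjusted p = 0.0397), and not with hPTH(1-34), at +0.26 (0.170), or PTH(1-36), at +0.24 (0.207). The call with hPTH(1-31) was lost when any of 5 of the 6 arrays involved was left out, with adjusted p up to 0.162 (the arrays are named with the processing alternatives). Slc7a11, the cystine importer, spread most among the 34 genes: it measured 4.51, 4.25 and 5.06 with hPTH(1-31) and 4.82, 4.89 and 4.14 with hPTH(1-34), against 4.15, 4.18 and 4.06 with vehicle. Its differences of +0.48 and +0.49 were not called, and each interval reached 0.49 to either side of its value.

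Slc38a2 (SNAT2) imports small neutral amino acids such as alanine and glutamine with sodium, and amino acid starvation is known to induce it. It measured 9.33, 9.27 and 9.48 with hPTH(1-31), 9.40, 9.48 and 9.24 with hPTH(1-34), and 9.34, 9.21 and 9.38 with PTH(1-36), against 9.92, 9.90 and 9.93 with vehicle. With the truncated analogs it measured 9.93, 10.0 and 9.91 (bPTH(3-34)), 9.88, 9.86 and 9.94 (bPTH(7-34)) and 9.84, 9.83 and 9.84 (hPTH(7-34)). The intact arrays lay below all others, with no overlap. The difference from vehicle was -0.56 with hPTH(1-31) (adjusted p = 9.26e-05), -0.54 with hPTH(1-34) (0.000126) and -0.61 with PTH(1-36) (4.25e-05), each with a standard error of 0.08.

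Slc38a2 lies on chromosome 15 between 2 genes of its own family, Slc38a1 and Slc38a4. Slc38a1 (SNAT1) was not called, at +0.25, +0.20 and +0.13 with hPTH(1-31), hPTH(1-34) and PTH(1-36). Slc38a4 (SNAT4), which belongs to a list of 19 other amino acid transporters, fell by 1.06, 1.16 and 1.01 on the log2 scale with the same analogs. The family member Slc38a3 (SNAT3), a glutamine transporter that lies elsewhere, rose by 2.00, 1.69 and 1.57, more than any of the 34 genes. The family thus held genes that rose, that fell and that were not called in the same arrays.

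Slc1a5 (ASCT2), a sodium-dependent exchanger of glutamine and other neutral amino acids, was lower than vehicle with hPTH(1-34), at -0.47 (adjusted p = 0.0106), and not called with hPTH(1-31), at -0.34 (0.0744), or PTH(1-36), at -0.24 (0.247). It averaged 7.46 ± 0.14 with hPTH(1-34), against 7.93 ± 0.17 with vehicle (SD, n = 3 each). A second cluster with the same symbol and a lower mean signal gave -0.23 with hPTH(1-34) (adjusted p = 0.702), and with both clusters averaged the call was lost (0.126). It was also lost without vehicle replicate 2 or hPTH(1-34) replicate 3 (up to 0.0647). The arginine transporter Slc7a1 and the neutral amino acid transporter Slc1a4 were not called, with differences of -0.26 to -0.01 over the intact analogs. The F test called 31.6% of the list of 19 other transporters, against 12.2% of all genes. In that list 2 rose and 2 fell with hPTH(1-31), 2 rose and 3 fell with hPTH(1-34), and 2 rose and 2 fell with PTH(1-36). Slc7a2 (CAT2), an arginine transporter, was among those that fell, at -0.49, -0.51 and -0.39.

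**Figure D3:**
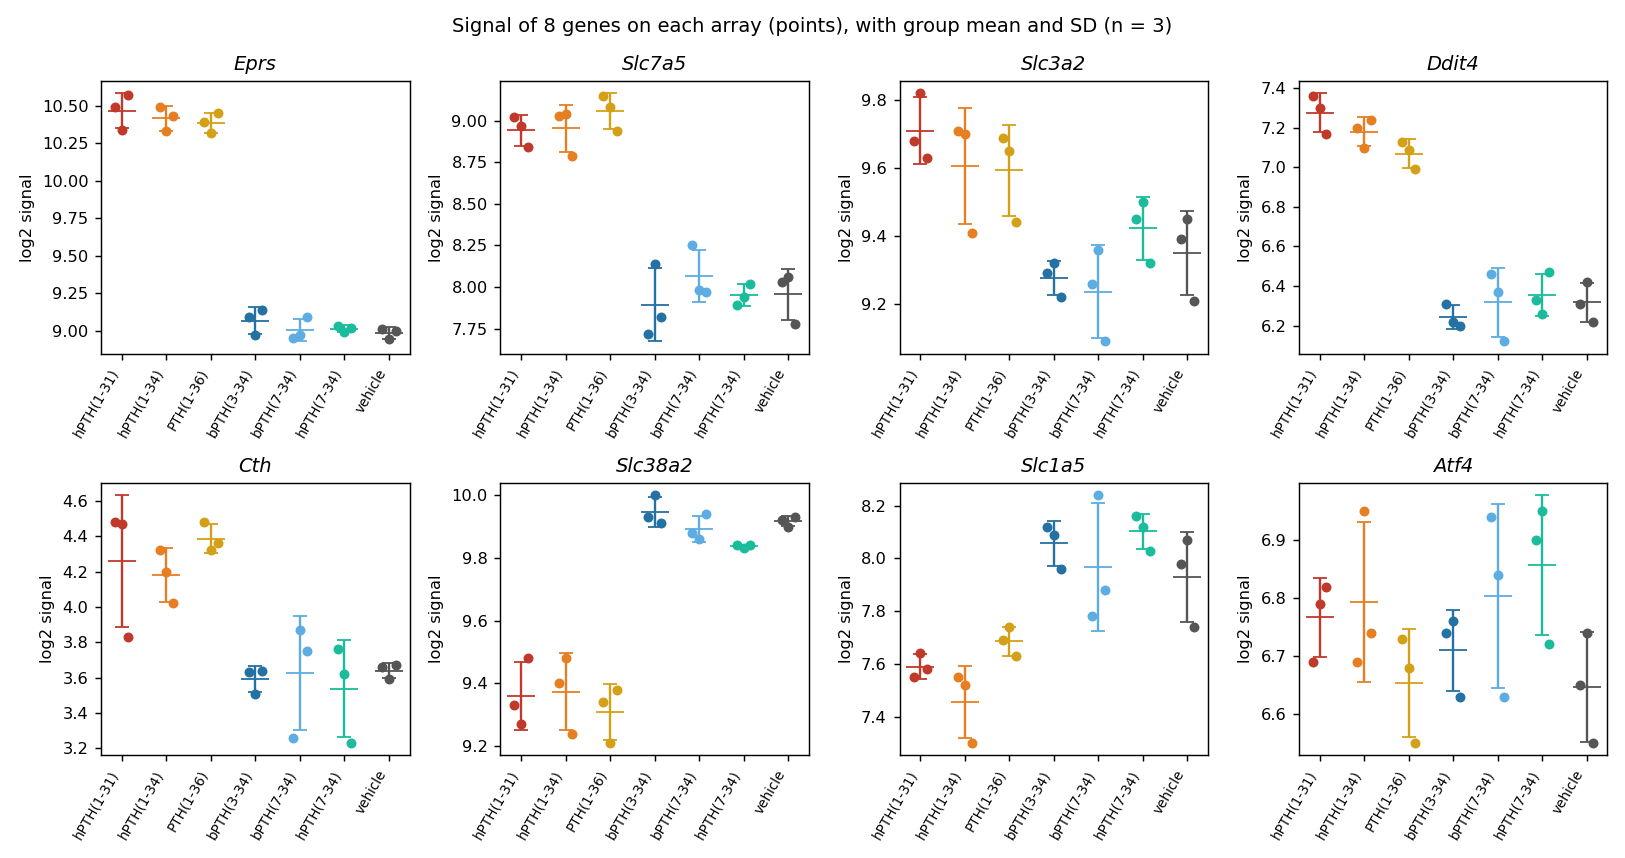
Log2 signal on each array (points), with the group mean and SD (lines, n = 3), for the 7 genes called with any intact analog and for Atf4, in the 6 analog groups and vehicle, with a separate scale in each panel. For Eprs, Slc7a5 and Ddit4 the 9 points of intact analogs lie above all 12 others, for Slc38a2 they lie below them, and for Atf4 all groups overlap.

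Of the 8 stress regulators, 1 rose with each intact analog and 0 fell. The F test called 1 of the 8, a count near the background, as it called 12.2% of all genes. That gene was Ddit4 (REDD1), an inhibitor of mTORC1 that is induced by hypoxia, glucocorticoids and other stresses. Its signals were 7.36, 7.30 and 7.17 with hPTH(1-31), 7.20, 7.10 and 7.24 with hPTH(1-34), and 7.13, 7.09 and 6.99 with PTH(1-36), against 6.31, 6.42 and 6.22 with vehicle. With the truncated analogs they were 6.31, 6.22 and 6.20 (bPTH(3-34)), 6.46, 6.37 and 6.12 (bPTH(7-34)) and 6.33, 6.26 and 6.47 (hPTH(7-34)). The intact arrays were all above the rest, and the truncated ones overlapped vehicle. The difference from vehicle was +0.96 with hPTH(1-31) (adjusted p = 1.25e-06), +0.86 with hPTH(1-34) (4.64e-06) and +0.75 with PTH(1-36) (2.85e-05), each with a standard error of 0.10.

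Atf4, the transcription factor at the centre of the response, was not called with any analog (F test, adjusted p = 0.584). It measured 6.69, 6.79 and 6.82 with hPTH(1-31), 6.69, 6.95 and 6.74 with hPTH(1-34), and 6.73, 6.68 and 6.55 with PTH(1-36), against 6.65, 6.74 and 6.55 with vehicle. With the truncated analogs it measured 6.74, 6.76 and 6.63 (bPTH(3-34)), 6.94, 6.84 and 6.63 (bPTH(7-34)) and 6.90, 6.95 and 6.72 (hPTH(7-34)). The groups overlapped throughout, and with hPTH(1-34) the 95% interval of the difference ran from -0.06 to 0.36. Atf4 is controlled largely at translation, which these arrays do not measure.

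The other 6 regulators did not pass the test with any intact analog. With hPTH(1-34) the differences were -0.09 for the Atf4 relative Atf5, -0.26 for Ddit3 (CHOP), the factor of prolonged stress, and -0.12 for Cebpg, a C/EBP partner of Atf4. Trib3, a pseudokinase that Atf4 and CHOP induce, differed by -0.33, the leucine sensor Sesn2 by +0.03, and Chac1, which degrades glutathione, by +0.02. The intervals were narrow for Sesn2 (-0.16 to 0.22) and wide for Trib3 (-0.74 to 0.07) and Ddit3 (-0.71 to 0.19). The RefSeq spans of Atf5, Cebpg and Ddit3, like those of Psph, Shmt2 and Wars, overlap another protein-coding gene. Of these 6, 0 were called, a count near the background, as the F test called 12.2% of all genes.

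Among the 8 enzymes of amino acid and one-carbon synthesis, 1 rose with hPTH(1-31), 1 with PTH(1-36) and 0 with hPTH(1-34), and 0 fell. In the F test 1 of these 8 was called, again a count near the background of 12.2% of all genes. The gene called was Cth, cystathionine γ-lyase, which makes cysteine from cystathionine and releases hydrogen sulfide. It measured 4.48, 4.47 and 3.83 with hPTH(1-31), 4.32, 4.20 and 4.02 with hPTH(1-34), and 4.48, 4.32 and 4.36 with PTH(1-36), against 3.66, 3.59 and 3.67 with vehicle. The truncated analogs gave 3.63, 3.51 and 3.64 (bPTH(3-34)), 3.26, 3.87 and 3.75 (bPTH(7-34)) and 3.76, 3.62 and 3.23 (hPTH(7-34)). The arrays of each intact analog lay above those of vehicle, although 1 array of hPTH(1-31) lay below 1 array of bPTH(7-34), and its signals were the lowest of the 7 called genes. The difference from vehicle was +0.62 with hPTH(1-31) (adjusted p = 0.0310), +0.54 with hPTH(1-34) (0.0642, not called) and +0.75 with PTH(1-36) (0.0106), each with a standard error of 0.17. The call with hPTH(1-31) was lost without any one of the 3 vehicle arrays, or without hPTH(1-31) replicate 1 or 2, with adjusted p up to 0.143.

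The remaining synthesis genes did not pass the test. Asparagine synthetase (Asns), the standard reporter of the amino acid response, averaged 6.97 ± 0.15 with hPTH(1-31) and 6.94 ± 0.24 with hPTH(1-34), against 6.80 ± 0.10 with vehicle (SD, n = 3 each), and its differences were +0.18, +0.14 and +0.18 with the 3 intact analogs. In the serine pathway Phgdh, its first enzyme, differed by -0.20, -0.43 and -0.36, Psat1 by -0.07, -0.17 and -0.07, and Psph by -0.28, -0.12 and +0.05. Of the mitochondrial one-carbon enzymes, Shmt2 differed by -0.18, -0.19 and -0.28 and Mthfd2 by +0.11, +0.10 and +0.22. Aldh18a1, which makes the precursor of proline, averaged 8.68 ± 0.07 with hPTH(1-34), against 8.70 ± 0.13 with vehicle (SD, n = 3 each). Vldlr, a lipoprotein receptor that Atf4 is known to induce, was not called either, at -0.17, -0.24 and -0.12. For 22 of the 29 genes not called with hPTH(1-34), the 95% interval of the difference lay within 0.5 of 0 on the log2 scale, and the wider 7 were Ddit3, Trib3, Phgdh, Slc7a11, Slc7a1, Cth and Vldlr.

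With the truncated analogs 0 of the 34 genes were called by limma. With bPTH(3-34) and bPTH(7-34), 0% of all genes were called, and 1 of the 34 had an unadjusted p under 0.05 in each comparison. With hPTH(7-34), 0.0721% of all genes were called, and 3 of the 34 had an unadjusted p under 0.05. The unadjusted counts carry no correction for the number of genes tested and are not comparable with the shares called, so they are not read as differences. Eprs differed from vehicle by +0.08, +0.02 and +0.03 with bPTH(3-34), bPTH(7-34) and hPTH(7-34), and Slc7a5 by -0.06, +0.11 and -0.01. The dose of bPTH(7-34) was 1000 nM, not 100 nM, and its values are set against vehicle only.

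The analogs given at 100 nM were also compared with each other in 5 pairs, with p-values adjusted over all genes within each pair. With bPTH(3-34), 2 of the 34 genes were higher and 4 were lower than with hPTH(1-34), where 9.32% of all genes were called (5.38% higher and 3.94% lower). With hPTH(7-34), 2 were higher and 4 were lower than with hPTH(1-34), where 10.9% of all genes were called (6.66% higher and 4.2% lower). In both pairs Eprs, Slc7a5, Ddit4 and Cth were lower and Slc38a2 and Slc1a5 were higher with the truncated analog, and these pairs share the hPTH(1-34) arrays. Eprs differed by -1.35 with bPTH(3-34) (adjusted p = 1.46e-09) and by -1.40 with hPTH(7-34) (9.23e-10). Slc1a5 differed by +0.60 (0.00151) and +0.65 (0.000719) in the same pairs, and its signal with these truncated analogs averaged 0.13 and 0.17 above vehicle, which was not called. With both Slc1a5 clusters averaged, the difference between bPTH(3-34) and hPTH(1-34) was no longer called (adjusted p = 0.126). Cth differed by -0.59 (0.0403) and -0.64 (0.0211), and these calls were lost when any of 5 of 6 arrays (up to 0.139) or 3 of 6 arrays (up to 0.106) was left out.

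In the 3 pairs compared within a class, 0 of the 34 genes passed the test; hPTH(1-31) and PTH(1-36) were not compared with each other, nor bPTH(7-34) with another truncated analog. Between hPTH(1-31) and hPTH(1-34), which differ in the last residues, 0 of the 34 genes were called by limma, where 0% of all genes were, and 0 had an unadjusted p under 0.05. Between PTH(1-36) and hPTH(1-34), 0 were called, where 0.00451% of all genes were, and 0 had an unadjusted p under 0.05. For Eprs, hPTH(1-31) minus hPTH(1-34) was +0.05 with a 95% interval from -0.12 to 0.22, and PTH(1-36) minus hPTH(1-34) was -0.03, from -0.20 to 0.14. For Slc7a5 these differences were -0.01 (-0.26 to 0.24) and +0.10 (-0.15 to 0.35), and for Ddit4 +0.10 (-0.10 to 0.30) and -0.11 (-0.31 to 0.09). Cth, Slc3a2 and Slc1a5 were each called against vehicle with some but not all intact analogs, and their differences between intact analogs were not called: PTH(1-36) minus hPTH(1-34) was +0.21 for Cth (-0.16 to 0.57) and +0.23 for Slc1a5 (-0.01 to 0.47), and hPTH(1-31) minus hPTH(1-34) was +0.10 for Slc3a2 (-0.12 to 0.33). Between hPTH(7-34) and bPTH(3-34), 0 were called, where 0.0496% of all genes were, and 0 had an unadjusted p under 0.05, with Eprs at -0.05 (-0.22 to 0.11).

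Genes around the 34 changed in several directions with the intact analogs. Over all genes, 4.38%, 3.9% and 3.68% were called higher and 4.32%, 4.74% and 3.54% lower with hPTH(1-31), hPTH(1-34) and PTH(1-36). Of 9 eIF2α kinases, phosphatase subunits and GCN2 partners, 1 rose with each intact analog, Impact, an inhibitor of GCN2 activation, at +0.48 with hPTH(1-31) (adjusted p = 0.000468), +0.50 with hPTH(1-34) (0.000321) and +0.46 with PTH(1-36) (0.000910). In the same list 1 gene fell with hPTH(1-31) and 1 with hPTH(1-34): GCN2 itself (Eif2ak4, named after its values were seen), at -0.41 and -0.41 (0.0493 and 0.0475). It was not called with PTH(1-36), at -0.31 (0.174), or in the F test (0.0825), and its hPTH(1-31) arrays overlapped those of vehicle. Of 13 other genes linked to Atf4 and CHOP, 3 rose with each intact analog and 1 fell with PTH(1-36). Those 3 were Gpt2, the mitochondrial alanine transaminase, at +1.20, +1.16 and +1.11, Cebpb, a C/EBP factor that cyclic AMP also induces, at +1.42, +1.23 and +1.24, and Mthfd1l, a mitochondrial folate enzyme, at +0.52, +0.54 and +0.63. Of 11 chaperone genes of the endoplasmic reticulum response, 2, 2 and 1 rose with hPTH(1-31), hPTH(1-34) and PTH(1-36), and 0 fell. The factor Xbp1 was called each time, at +0.50, +0.44 and +0.45, while the chaperones Hyou1 and Hspa5 were called with 1 analog each. The F test called 11.1% of the eIF2α list, 46.2% of the list linked to Atf4 and CHOP and 27.3% of the chaperone list, against 12.2% of all genes.

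Calls in a list of glutathione and other antioxidant genes, termed the glutathione list, were mostly higher with the intact analogs. Those in the mTORC1 list were all lower. The glutathione list held 9 genes: Gclc, Gclm, Gss, Gsr, Gpx4, Hmox1, Nqo1, Txnrd1 and Srxn1. Of these, 4 rose with hPTH(1-31), 4 rose and 1 fell with hPTH(1-34), and 3 rose with PTH(1-36). The gene that fell was Gss, glutathione synthetase, at -0.32 (adjusted p = 0.0444). Gclm, Gsr, Gpx4 and Nqo1 were not called against vehicle with any analog. Sulfiredoxin (Srxn1) rose by 1.25, 1.33 and 1.12 on the log2 scale, thioredoxin reductase (Txnrd1) by 0.60, 0.51 and 0.48, and Gclc, which makes the rate-limiting subunit of glutathione synthesis, by 0.54, 0.50 and 0.48. Over all genes, 4.32%, 4.74% and 3.54% were called lower with hPTH(1-31), hPTH(1-34) and PTH(1-36). Of 20 genes of mTORC1, its regulators and its amino acid sensors, 0 rose, and 4, 4 and 2 fell. Among them were the sestrin Sesn1, at -0.53, -0.58 and -0.52, and Deptor, an mTOR inhibitor, at -0.40, -0.40 and -0.42, whereas Sesn3 was called with hPTH(1-31) and hPTH(1-34), at -0.37 and -0.39, and not with PTH(1-36), at -0.29 (adjusted p = 0.0892). The median difference with hPTH(1-34) was +0.30 over the glutathione list, -0.09 over the mTORC1 list, -0.11 over the other transporters and -0.18 over the genes linked to Atf4 and CHOP, although 3 of that last list rose, against -0.01 over all genes. In each of these lists 0 genes were called by limma with a truncated analog. The F test called 44.4% of the glutathione list and 25% of the mTORC1 list, against 12.2% of all genes.

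**Figure D4:**
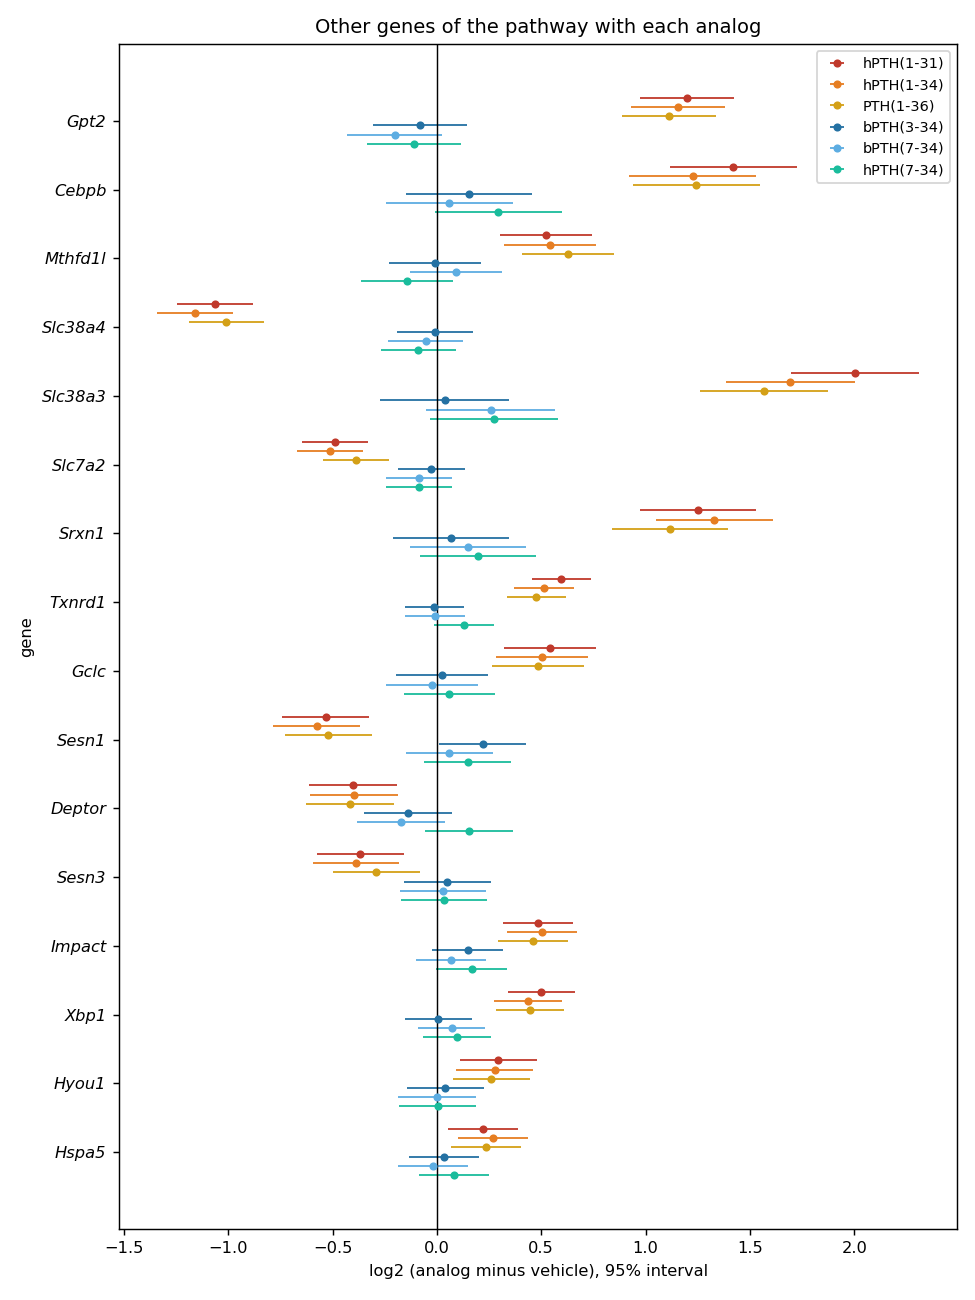
Log2 difference from vehicle (points) with 95% intervals (bars) for named genes of the surrounding lists with each of the 6 analogs. Slc38a3, Cebpb, Srxn1 and Gpt2 lie above +1 with hPTH(1-31), hPTH(1-34) and PTH(1-36), and Slc38a4 lies at -1.16 to -1.01, while the points of the truncated analogs lie nearer 0.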

How the data were processed

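Signals of mouse osteoblast cultures on 21 arrays were analysed as the authors deposited them. Per the submitters' processing notes, the values came from RMA and Affymetrix Expression Console, with versions and settings not given in the sources used here. The base of the logarithm is not given in the sources used here; the deposited signals (0.25 to 13.6) were taken to be log2, as RMA usually gives, and every fold depends on this. Of 41345 transcript clusters, those with 1 gene symbol in the platform annotation were kept, and the cluster with the highest mean stood for a gene, which left 22180 genes. Groups came from the labels.

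limma 3.58.1 (R 4.3.3) was fitted to all genes and arrays, with 11 contrasts, Benjamini-Hochberg adjustment over all genes and a threshold of 0.05, after the procedure was tested on simulated data. Members and lists were chosen with earlier results of these data known. Values per array are given for Atf4 and for members called against vehicle with a difference of at least 0.5, and up to 3 genes per surrounding list by the F test; other genes given in passing were added after their values were seen. Alternatives covered normalization, filtering, cluster choice, the model and each replicate left out. Promoter motifs were counted in RefSeq windows (GRCm38.p6).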

Additional observations from a re-analysis of the deposited data

How the results depend on the processing

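Of 28 called differences of the 34 genes, repeated 360 times under other settings, 328 repeats kept the call, 32 lost it and 0 turned its sign. The 22 that kept it in every repeat include Eprs, Slc7a5, Ddit4 and Slc38a2 in each comparison that called them. The 6 others concern Cth, Slc3a2 and Slc1a5. With only the 2 groups compared in the fit, Slc3a2 and Cth with hPTH(1-31) against vehicle had adjusted p of 0.152 and 0.124, Slc1a5 with hPTH(1-34) against vehicle had 0.0964, and Cth with hPTH(7-34) against hPTH(1-34) had 0.0583. A further quantile normalization ended the calls of Slc3a2 with hPTH(1-31) (0.0923) and of Cth with bPTH(3-34) and hPTH(7-34) against hPTH(1-34) (0.0729 and 0.0561). Adjustment over all transcript clusters ended those of Slc3a2 and Cth with hPTH(1-31) (0.0828 and 0.0668) and of Cth with bPTH(3-34) against hPTH(1-34) (0.0826). Slc3a2 with hPTH(1-31) was lost without vehicle replicates 1 or 3 or any of the hPTH(1-31) replicates, Cth with bPTH(3-34) against hPTH(1-34) without hPTH(1-34) replicates 1 or 2 or any of the bPTH(3-34) replicates, and Cth with hPTH(7-34) against hPTH(1-34) without hPTH(1-34) replicates 1 or 2 or hPTH(7-34) replicate 3. The causes were not tested. Leaving out each replicate in turn gave 4 to 5 called genes with hPTH(1-31) and with hPTH(1-34), 5 to 6 with PTH(1-36), 5 to 8 with bPTH(3-34) against hPTH(1-34), 5 to 6 with hPTH(7-34) against hPTH(1-34), 7 to 8 in the F test, and 0 in each of the 6 comparisons that called 0. Cth has a mean signal under 4 and drops out where dim genes are filtered. The surrounding lists were not repeated under other settings.

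The replicate numbers were not used as pairs in the main fit. Over 63 pairs with the same number the median correlation of deviations from the group mean was 0.03, and the highest was 0.161. For pairs with different numbers the median was -0.01 and the highest 0.085, and 1 pair with the same number exceeded 0.1. Low correlations do not show that arrays with the same number are unrelated. With the replicate number as a block, 7, 6 and 6 of the 34 genes were called with hPTH(1-31), hPTH(1-34) and PTH(1-36) against vehicle, 7 with each of bPTH(3-34) and hPTH(7-34) against hPTH(1-34), and 7 in the F test, and Eprs with hPTH(1-34) had an adjusted p of 6.68e-10.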

Other observations

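Slc7a11 with hPTH(7-34) measured 4.90, 4.60 and 4.43, against 4.15, 4.18 and 4.06 with vehicle, so that the 3 arrays lay above the 3 of vehicle, but the difference of +0.51 (95% interval 0.03 to 1.00) had an adjusted p of 0.596 (unadjusted 0.0401). A second Slc7a11 cluster, with a mean signal of 1.79, differed by -0.01 in the same comparison. Phgdh, the first enzyme of serine synthesis, was lower than vehicle by 0.43 with hPTH(1-34) and by 0.36 with bPTH(3-34) on the log2 scale, with adjusted p of 0.0980 and 0.795, and neither was called.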
